A study of Mus musculus with 8 samples.

Results

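Pre-mRNA splicing is carried out by the spliceosome, which assembles anew on each intron from small nuclear ribonucleoproteins (snRNPs) and many other proteins. A ring of Sm proteins sits on the U1, U2, U4 and U5 small nuclear RNAs, U2AF and the SF3A and SF3B complexes define the 3′ end of the intron and the branch point, PRPF proteins build and activate the catalytic machine, and SRSF and hnRNP proteins bind the transcript and favour or repress particular splice sites. Genes were selected by symbol (Srsf, Hnrnp, Snrp, Sf3a or Sf3b, U2af and Prpf followed by their number or letter), with no measured value in the rule. The rule found 68 genes of 14709 listed in the 2 expression tables of the study, in 6 classes: 11 Srsf, 20 Hnrnp, 12 Snrp, 9 Sf3, 3 U2af and 13 Prpf genes.

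KLF3 is a zinc finger transcription factor that binds CACCC-type sequences, and the study asked how mouse embryonic stem cells (mESCs) with KLF3 protein differ from those without it. All cells were mESCs labelled C57BL/6(F) x 129/sv(M) by background and 3.5 days by stage, and were grown in serum and LIF on gelatin. In the first experiment, KLF3-GFP-negative and KLF3-GFP-positive cells were sorted from a reporter line picked as colonies, in which the CAGGS promoter drives a fusion of Emerald GFP and the N-terminal stretch of KLF3, lacking its DNA-binding domain, together with DsRed under the EF1α promoter. Each sample of 500 cells was sequenced by Smart-seq2, which amplifies full-length cDNA without strand information. In the second, picked clones of the R26 line (R26-M2rtTA, with an FRT site at Col1A1) carried codon-optimized Klf3 (KLF3-OE) or GFP (GFP-OE) at that site, both were induced with doxycycline for 72 hours, and libraries were made from poly(A) RNA. Each of the 4 conditions had 2 samples.

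The deposited value of a gene is 1 FPKM (fragments per kilobase of transcript, scaled to the mapped reads of the library) per condition, the authors' mean of the 2 samples. No SD, test or counting interval could be attached to any value, so nothing below is said to exceed the spread between replicates. A difference is given as log2(FPKM + 1) in KLF3-GFP-positive minus KLF3-GFP-negative cells, or in KLF3-OE minus GFP-OE cells, over genes whose 2 columns average 1 FPKM or more in that experiment (9212 and 11179 genes). Because 1 is added, the difference of a low gene is understated. The median difference of all these genes was 0.03 in sorted cells and -0.18 in overexpression, and it moved between -0.56 and 0.00 in overexpression with the scaling of the columns. For that reason values are also given relative to the median of all genes and over 13 settings, the deposited values and 12 alternatives that change the scaling, the pseudocount, the minimum expression or the removal of trends with gene length and GC content. In bulk RNA, fewer cells of a type and less RNA per cell cannot be told apart.

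Several measures moved with the groups. The 83 genes with ribosomal protein symbols took up 30.3% of all FPKM in KLF3-GFP-negative cells, 25.99% in KLF3-GFP-positive cells, 28.8% in GFP-OE cells and 38.7% in KLF3-OE cells. Of 5 ES cell markers (Pou5f1, Sox2, Nanog, Zfp42 and Esrrb), 5 were lower in KLF3-GFP-positive cells (summed FPKM 420 to 189) and 4 in KLF3-OE cells (1728 to 1422). All 5 primitive endoderm markers (Gata4, Gata6, Sox17, Dab2 and Pdgfra) were over 2-fold higher in both experiments, with summed FPKM of 6.68 to 340 and 13.4 to 69.9. Fibroblast feeder markers were near 0, with 2 of 5 listed and a summed FPKM of 0.55 to 0.51 in sorted cells, and 3 of 5 listed with 3.13 to 3.83 in overexpression. The FPKM of Klf3 itself were 107 (KLF3-GFP-negative), 122 (KLF3-GFP-positive), 58.7 (GFP-OE) and 47.8 (KLF3-OE). Reads of the KLF3-GFP reporter may count toward Klf3 in sorted cells, so the first pair need not be the native gene alone. The codon-optimized transgene need not align to the Klf3 gene, so the last pair is no check of induction. The part of these shifts in the differences of splicing genes was not tested.

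In sorted cells, 50 of 67 splicing genes tested were lower in KLF3-GFP-positive cells and 17 were higher, where 48.1% of all genes tested were lower and 51.7% higher. Their median difference was -0.28, or -0.32 relative to all genes. Large differences were few. None was over 2-fold higher (background 13.8%) and 2 were over 2-fold lower (background 8.32%), Snrpn and Prpf40b. At the smaller limit of 1.5-fold, 13 were lower (background 18.3%) and 2 higher (background 24.4%), Srsf9 and Hnrnph1. Together the 68 genes made up 1.62% of all FPKM of the negative cells and 1.20% of those of the positive cells.

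In overexpression, 34 of 66 splicing genes tested were lower in KLF3-OE cells (background 59.4%) and 32 were higher (background 40.5%), with a median of -0.05, or 0.13 above that of all genes. At over 2-fold, 2 were higher (background 6.6%), Snrpg and Snrpd2, and 7 were lower (background 10.1%), Prpf4b, Hnrnpul1, Prpf38b, Srsf5, Srsf11, Hnrnph2 and Hnrnpa3. Prpf4b and Hnrnpul1 alone were past 2-fold in all 13 settings. The others fell short of it in some, so that Prpf38b, Srsf5 and Hnrnpa3 were past it in 11 settings, Hnrnph2 and Snrpg in 10, Srsf11 in 9 and Snrpd2 in 8. With median-ratio scaling Srsf5, Srsf11, Hnrnph2 and Hnrnpa3 were between -0.99 and -0.88. At 1.5-fold, 9 were higher (background 15.9%) and 19 lower (background 27.4%). Relative to the median of all genes, the class median was 1.04 for Snrp, 0.39 for U2af, 0.04 for Sf3, -0.02 for Srsf, -0.03 for Prpf and -0.13 for Hnrnp genes. Sf3, Srsf and Prpf genes were thus close to all genes, and the class medians other than that of Snrp genes took both signs over the settings.

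**Figure D1:**
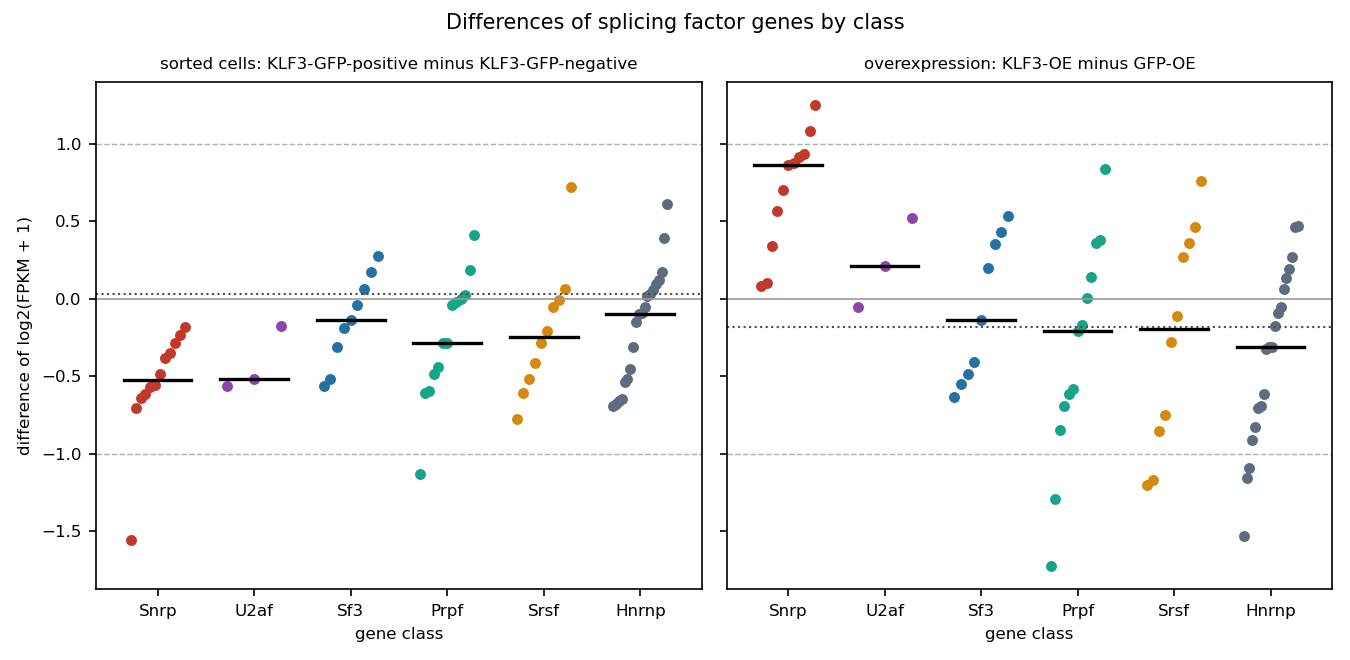
Difference of log2(FPKM + 1) of each splicing gene tested (points), by class, in sorted cells (left, 67 genes) and overexpression (right, 66 genes), with class medians as bars, the median of all genes dotted and 2-fold limits dashed. All 12 Snrp points lie below 0 on the left, with a median of -0.52, and all 11 lie above 0 on the right, with a median of 0.86, although 3 of the 11 (Snrpb, Snrpb2 and Snrpd3) pass below 0 under other scalings.

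The promoters of genes at both ends of the overexpression range are shown first, to let their sequence be read beside the values. Each is the 150 bases before the RefSeq start (GRCm38.p6), from the strand of the gene. Capitals mark CACCC and CCGGAAG on either strand, the first a sequence that KLF factors bind and the second one that ETS factors bind. Snrpg and Snrpa were chosen among Snrp genes that were higher in KLF3-OE cells, and Srsf5, Prpf38b and Hnrnpul1 among the genes over 2-fold lower, after their values were seen and where the stretch lies outside the annotated gene.
Snrpg, chr6:86371390-86371539, plus strand: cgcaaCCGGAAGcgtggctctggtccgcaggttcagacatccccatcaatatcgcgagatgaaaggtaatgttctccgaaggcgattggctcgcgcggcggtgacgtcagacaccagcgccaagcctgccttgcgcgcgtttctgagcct
Snrpa, chr7:27196272-27196421, minus strand: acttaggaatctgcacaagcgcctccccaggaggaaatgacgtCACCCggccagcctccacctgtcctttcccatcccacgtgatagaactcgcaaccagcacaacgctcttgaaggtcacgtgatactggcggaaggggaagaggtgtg
Srsf5, chr12:80945349-80945498, plus strand: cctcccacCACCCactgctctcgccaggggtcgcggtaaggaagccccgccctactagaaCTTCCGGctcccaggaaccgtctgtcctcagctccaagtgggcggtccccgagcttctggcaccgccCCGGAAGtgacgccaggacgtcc
Prpf38b, chr3:108911730-108911879, minus strand: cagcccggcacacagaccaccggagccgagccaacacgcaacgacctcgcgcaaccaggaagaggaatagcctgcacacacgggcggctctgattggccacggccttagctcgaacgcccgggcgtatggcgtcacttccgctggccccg
Hnrnpul1, chr7:25754760-25754909, minus strand: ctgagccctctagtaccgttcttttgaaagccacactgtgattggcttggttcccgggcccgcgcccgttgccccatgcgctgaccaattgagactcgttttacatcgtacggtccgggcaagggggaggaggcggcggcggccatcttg

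The stretches of the 2 Snrp genes differ in the letters searched, with CCGGAAG in that of Snrpg and CACCC in that of Snrpa. Among the lower genes, that of Srsf5 holds 1 CACCC and 2 CCGGAAG, and those of Prpf38b and Hnrnpul1 hold neither. Of the stretches not shown because they reach into the annotated gene, those of Snrpd2 and Snrpe hold neither within the 150 bases. That of Prpf4b, the lowest gene in overexpression, holds 1 CCGGAAG. These few stretches were picked after the values were seen, and whether the letters divide higher from lower genes was not tested. RefSeq promoters of 300 bases (250 before and 50 after the start) were found for 58 splicing genes and for 8714 genes tested. Within this longer window, the promoter of Snrpd2 holds the sequence that KLF factors bind and that of Snrpe the one that ETS factors bind. The promoter of Prpf4b holds both there. CACCC was found in 63.1% of all these promoters, in 48.3% of those of splicing genes (28 promoters) and in 4 of 10 of Snrp genes. CCGGAAG was found in 19.6% of all, in 32.8% of those of splicing genes (19 promoters), in 4 of 10 of Snrp and in 2 of 18 of Hnrnp genes. The 8-letter sequence CCACACCC was in 3.64% of all promoters and in 2 of 58 of splicing genes, none of them a Snrp gene. The median GC content was 61.3% for all promoters, 54.7% for Snrp and 68.7% for Srsf genes. A match is a description of letters, since binding was not measured.

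Sm proteins form the heptamer that surrounds most spliceosomal RNAs, and all of their genes had a lower FPKM in KLF3-GFP-positive cells and a higher one in KLF3-OE cells wherever they were listed. The 8 Sm genes had a median difference of -0.37 in sorted cells. The 7 that were listed in the overexpression table had a median of 0.91, with Snrpb and Snrpd3 passing below 0 when the columns were scaled to the same sum or quantile normalized. Snrpg (chr6:86371583-86378902) was at 1369 FPKM in the negative and at 1162 in the positive sorted cells, a difference of -0.24. It was at 303 FPKM in GFP-OE and 724 in KLF3-OE cells, a difference of 1.25, the highest among the 66 splicing genes. It was over 2-fold higher in 10 of 13 settings.

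Snrpd2 (chr7:19149722-19152735) encodes another protein of the ring, and it was at 687 and 464 FPKM in the negative and positive sorted cells (-0.57). In GFP-OE and KLF3-OE cells its FPKM were 369 and 781 (1.08). Snrpe, Snrpf and Snrpd1 encode further proteins of the ring and were under 2-fold in both experiments as deposited, but over 2-fold higher in KLF3-OE cells in 2 of 13 settings. Snrpe was the most abundant splicing gene in sorted cells, with 2272 FPKM in the negative and 2007 in the positive cells (-0.18), and had 296 and 558 FPKM in GFP-OE and KLF3-OE cells (0.91). Snrpf was at 1223 and 873 FPKM in the sorted cells (-0.49), and at 200 and 364 in the overexpressing ones (0.86). Snrpd1 went from 636 to 521 FPKM in the first experiment (-0.29) and from 350 to 671 in the second (0.94). These 5 Sm genes were lower in sorted and higher in overexpressing cells in every setting.

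The other Sm genes gave small differences in overexpression. Snrpb, which encodes SmB, was at 341 and 261 FPKM in sorted cells (-0.38) and at 143 and 181 in overexpression (0.34). Snrpd3 went from 111 to 86.7 FPKM in sorted cells (-0.35) and from 126 to 134 in overexpression (0.08). Both kept a negative sign in sorted cells in every setting, but their overexpression differences ranged from -0.11 to 0.55 and from -0.36 to 0.36.

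Snrpn (chr7:59982495-60140219, minus strand) encodes SmN, a close relative of SmB made chiefly in neurons, and is an imprinted gene read from the paternal allele. It had the lowest difference of the splicing genes in sorted cells, from 79.6 to 26.4 FPKM (-1.56), and was over 2-fold lower in all 13 settings. Snrpn was not listed in the overexpression table. Gm38393, a gene model on the same strand that overlaps it, went from 15.6 to 6.35 FPKM (-1.18) in sorted cells and was at 1.10 in GFP-OE and 0.10 in KLF3-OE cells, where 0.10 is the lowest value the table holds. Snurf also overlaps Snrpn on the same strand, and reads from overlapping genes may have been divided among them. The coding sequences of Snrpb and Snrpn are printed because reads of the 2 genes could be confused. The first 120 bases are given from GRCm38, with capitals where they differ.
Snrpb: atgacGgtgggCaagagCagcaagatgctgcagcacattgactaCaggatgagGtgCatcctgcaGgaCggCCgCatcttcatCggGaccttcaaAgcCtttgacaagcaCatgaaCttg
Snrpn: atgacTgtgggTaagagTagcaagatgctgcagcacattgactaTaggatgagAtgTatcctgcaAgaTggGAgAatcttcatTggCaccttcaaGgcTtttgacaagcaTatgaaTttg
They differ at 17 of the 120 positions, and at 80.5% identity over 696 aligned bases the longest identical run was 32 bases. Of the 50-base words in Snrpn transcripts, 21.2% also occurred in other genes, chiefly in Gm38393.

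U1 and U2 carry proteins of their own, and the 4 Snrp genes for them had the signs of the Sm genes, with medians of -0.63 in sorted cells and 0.63 in overexpression, where 1 of them, Snrpb2, changed sign between settings. Snrpa encodes a U1 protein that binds a stem-loop of the RNA. It was at 383 and 235 FPKM in the negative and positive sorted cells (-0.70) and at 233 and 428 in GFP-OE and KLF3-OE cells (0.88). Snrpc encodes the U1 protein that contacts the 5′ splice site, and went from 138 to 88.3 FPKM in sorted cells (-0.64) and from 173 to 256 in overexpression (0.57). The products of Snrpa1 and Snrpb2 bind U2 as a pair. Snrpa1 went from 559 to 364 FPKM (-0.61) and from 157 to 255 (0.70), and Snrpb2 from 87.9 to 59.4 (-0.56) and from 68.8 to 74.0 (0.10). The pair thus differed in its overexpression values, and Snrpb2 ranged from -0.34 to 0.57 over the settings.

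Over all Snrp genes, the FPKM added up to 7886 and 6148 in the negative and positive sorted cells, and to 2419 and 4427 in GFP-OE and KLF3-OE cells. As a share of all FPKM, they took 0.87% and 0.65%, then 0.39% and 0.53%, so the direction was also seen in shares. The class median ranged from -0.67 to -0.41 in sorted cells with 12 of 12 lower in all 13 settings. In overexpression it ranged from 0.38 to 1.07 with 8 to 11 of 11 higher. Relative to all genes, the overexpression median was 1.04 and ranged from 0.41 to 1.07. The levels themselves are compared only within an experiment, as the 2 used different library protocols.

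**Figure D2:**
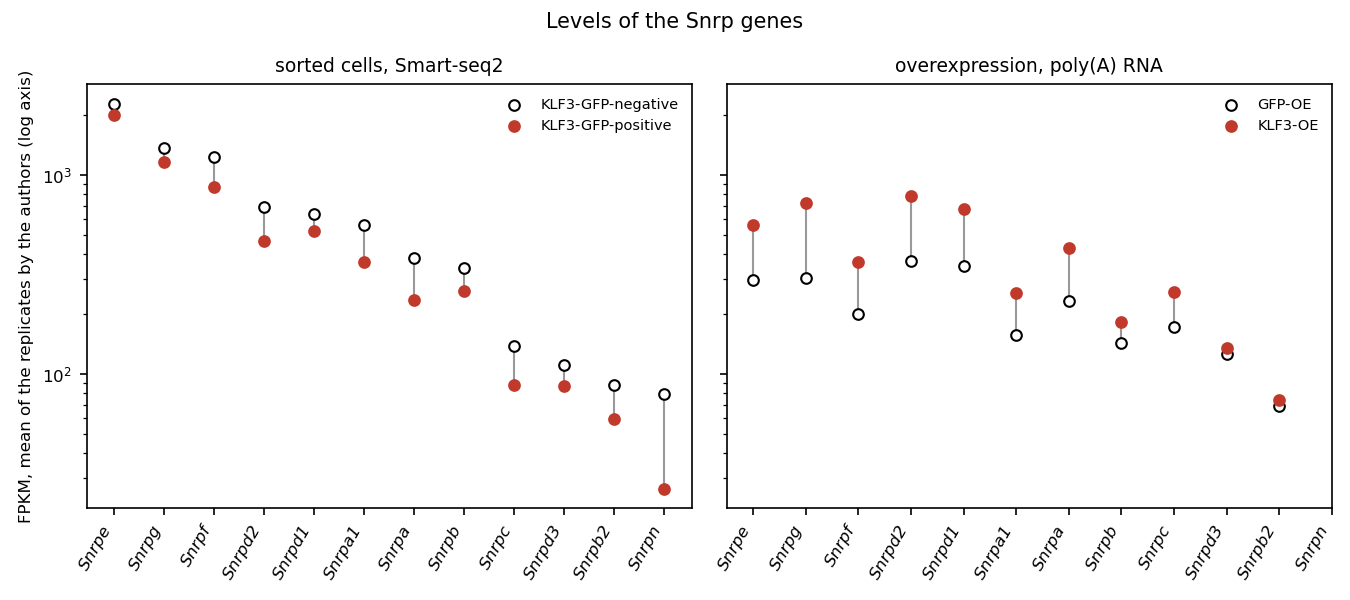
FPKM (log axis, the authors' means) of the Snrp genes in sorted cells (left: open, KLF3-GFP-negative; filled, KLF3-GFP-positive) and overexpression (right: open, GFP-OE; filled, KLF3-OE), ordered by level in KLF3-GFP-negative cells. Filled points lie below open ones for all 12 genes on the left and above them for all 11 on the right as deposited (Snrpb, Snrpb2 and Snrpd3 change sign under other scalings), and Snrpn, listed only on the left, has the widest gap there, from 79.6 to 26.4.

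U2AF binds the polypyrimidine tract through its large subunit, U2af2, and the AG at the 3′ splice site through its small subunit, U2af1. All 3 U2af genes were lower in KLF3-GFP-positive cells, with a median of -0.52, in every setting. U2af1 was at 758 and 530 FPKM (-0.52), and U2af1l4, a relative of the small subunit, at 51.5 and 34.6 (-0.56). U2af2 was the lowest of the class, with 9.53 and 8.31 FPKM (-0.18). In overexpression the 3 differences were under 1.5-fold, and each changed sign between settings. U2af1 went from 346 to 400 FPKM (0.21), U2af1l4 from 41.2 to 59.7 (0.52) and U2af2 from 124 to 119 (-0.05). These 3 values carry a limit, since 97.2% of the 50-base words of U2af1l4 transcripts recur in a readthrough model, Gm49396, and 59.4% of those of U2af1 and 29.9% of those of U2af2 recur elsewhere, chiefly in pseudogenes.

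SF3A and SF3B belong to the U2 snRNP and hold it at the branch point. Of the 9 Sf3 genes, 6 were lower and 3 higher in KLF3-GFP-positive cells (background 48.1% lower). The median was -0.14, or -0.17 relative to all genes. In KLF3-OE cells 5 were lower and 4 higher (background 59.4% lower), with a median 0.04 above that of all genes, and the median itself ranged from -0.57 to 0.11 over the settings. None was past 1.5-fold in sorted cells and 1, Sf3b3, in overexpression. Sf3b1, the large subunit that contacts the branch point and is often mutated in blood cancers, went from 49.2 to 33.0 FPKM in sorted cells (-0.56) and from 66.0 to 49.5 in overexpression (-0.41, with a change of sign between settings). Sf3b3, a scaffold of the complex, was at 13.6 and 13.2 FPKM in sorted cells (-0.04) and at 126 and 80.7 in overexpression (-0.63). The small subunit Sf3b5 was higher in both experiments in every setting, from 77.2 to 93.5 FPKM (0.27) and from 15.2 to 22.5 (0.54). It was the only splicing gene of which that held.

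The ends of the Sf3 class by level were Sf3b6, a subunit that touches the branch point, at 111 and 101 FPKM in sorted cells, and Sf3a2 at 4.42 and 5.10. Sf3a1 was at 27.8 and 18.6 FPKM in GFP-OE and KLF3-OE cells (-0.55) and kept its sign in every setting. SF3A, with its 3 subunits, held members of both signs in both experiments as deposited. In overexpression Sf3a2 and Sf3a3 changed sign between settings, and 0 to 2 of the 3 genes were higher. The remaining Sf3 genes (Sf3a3, Sf3b2 and Sf3b4) lay between -0.52 and -0.19 in sorted cells and between -0.48 and 0.20 in overexpression.

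PRPF proteins take part at several steps. In the U4/U6.U5 tri-snRNP, the unit that brings the catalytic RNA, 4 of 5 Prpf genes were lower in KLF3-GFP-positive cells (background 48.1%). In KLF3-OE cells 3 of 5 were lower (background 59.4%). Prpf3, a U4/U6 protein mutated in retinitis pigmentosa, was lower in sorted cells, from 69.4 to 45.6 FPKM (-0.59). It was higher in overexpression, from 72.8 to 131 FPKM (0.83). It shared this pair of signs in all settings with the genes Snrpa, Snrpa1, Snrpc, Snrpd1, Snrpd2, Snrpe, Snrpf and Snrpg and with no other splicing gene. Prpf4, the partner of Prpf3 in U4/U6, was at 4.28 and 4.37 FPKM (0.02) and then at 14.0 and 9.0 (-0.58). Prpf8, the protein at the heart of the catalytic centre, was at 4.68 and 4.60 FPKM in sorted cells (-0.02) and at 65.7 and 40.3 in overexpression (-0.69).

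Among the 5 Prpf genes of activation and catalysis, 4 were lower in KLF3-OE cells (background 59.4%), with a median of -0.84. Prpf4b (chr13:34875494-34902877), a kinase that phosphorylates other PRPF proteins, had the lowest difference of all splicing genes in overexpression, from 14.2 to 3.59 FPKM (-1.72), and was over 2-fold lower in all 13 settings. In sorted cells it was on the other side, at 23.8 and 31.9 FPKM (0.41). Prpf38b (chr3:108902805-108911727), a relative of a factor needed for activation, had the same pattern, with 54.8 and 21.8 FPKM in GFP-OE and KLF3-OE cells (-1.29) and 45.6 and 51.9 in the sorted cells (0.18). They were the only splicing genes that were higher in sorted and lower in overexpressing cells in every setting. Prpf18, which acts in the second catalytic step, was lower in both, from 4.74 to 3.10 FPKM (-0.49) and from 13.4 to 7.01 (-0.84).

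Some PRPF proteins associate with U1. Prpf40b (chr15:99295087-99317018) went from 7.72 to 2.98 FPKM (-1.13), over 2-fold in all 13 settings, and was at 39.7 and 43.8 in overexpression (0.14). Prpf39, a component of alternative U1 particles, was lower in both experiments, from 13.3 to 8.40 FPKM (-0.61) and from 11.7 to 7.33 (-0.61). Relative to the median of all genes, the 2 differences were -0.64 and -0.43. The overexpression difference ranged from -1.02 to 0.04 over the settings. Prpf19, the E3 ubiquitin ligase at the centre of the Prpf19 complex, was at 100 and 129 FPKM in overexpression (0.36) and at 13.1 in both sorted conditions (0.00). Prpf6, Prpf31 and Prpf38a lay between -0.44 and -0.28 in sorted cells and between -0.21 and 0.00 in overexpression.

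SRSF proteins carry RNA recognition motifs and a tail rich in arginine and serine, and mostly promote the inclusion of exons. Of 10 Srsf genes tested, 8 were lower in KLF3-GFP-positive cells (background 48.1%), with a median of -0.25. In KLF3-OE cells 6 were lower (background 59.4%), where the median of -0.20 lay 0.02 below that of all genes. That median ranged from -0.64 to 0.01 over the settings. Srsf12, the eleventh, was below 1 FPKM on average in both experiments, with 0.10 and 0.37 in sorted cells and 0.83 and 0.46 in overexpression. Srsf3, the smallest of the family and one active in mRNA export, had the lowest difference of the class in sorted cells, from 405 to 236 FPKM (-0.78). It was at 234 and 323 FPKM in GFP-OE and KLF3-OE cells (0.46, with a change of sign in some settings). Srsf9 had the highest difference of all splicing genes in sorted cells, from 54.1 to 89.7 FPKM (0.72), and was at 79.5 and 96.1 in overexpression (0.27).

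In overexpression the Srsf genes spread widely. Srsf5 (chr12:80945504-80950507) went from 339 to 147 FPKM (-1.20), and Srsf11, the most abundant Srsf gene in sorted cells, from 108 to 47.6 (-1.17). Both were close to 0 in sorted cells, where Srsf5 was at 123 and 118 FPKM (-0.06) and Srsf11 at 412 and 411 (-0.01). Srsf10, a repressor of splicing when it is dephosphorylated, and Srsf6 were lower in both experiments in every setting. Srsf10 went from 128 to 96.2 FPKM (-0.41) and from 76.3 to 41.8 (-0.85), and Srsf6 from 74.7 to 48.6 (-0.61) and from 117 to 69.6 (-0.75). The other direction in overexpression was led by Srsf2, a factor often mutated in myeloid disease, with 275 and 465 FPKM (0.76) against 104 and 109 in sorted cells (0.07). It was higher in KLF3-OE cells in every setting. The remaining Srsf genes (Srsf1, Srsf4 and Srsf7) lay between -0.52 and -0.21 in sorted cells and between -0.28 and 0.36 in overexpression.

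hnRNP proteins coat nascent transcripts and often repress exons. In KLF3-GFP-positive cells 12 of 20 Hnrnp genes were lower (background 48.1%), with a median of -0.10. In KLF3-OE cells 14 were lower (background 59.4%), with a median of -0.31 that lay 0.13 below that of all genes and changed sign between settings. Their summed FPKM was 5529 in GFP-OE and 3871 in KLF3-OE cells, or 0.90% and 0.46% of all FPKM, and 3629 and 2676 in sorted cells, or 0.40% and 0.28%. The most abundant of them were lower in KLF3-OE cells. Hnrnpa3 (chr2:75659261-75669407) was the most abundant splicing gene in GFP-OE cells at 1302 FPKM and was at 610 in KLF3-OE cells (-1.09). Hnrnpa1, the classic antagonist of SR proteins, was at 868 and 532 (-0.71), and Hnrnpa2b1 at 670 and 378 (-0.83).

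These 3 genes of the A group were lower in the sorted cells too. Hnrnpa3 was at 44.0 and 26.9 FPKM there (-0.69), Hnrnpa1 at 104 and 72.1 (-0.52) and Hnrnpa2b1 at 147 and 132 (-0.15). They kept their signs in both experiments in every setting, as did Hnrnpdl, Hnrnph2 and Hnrnpk. Hnrnpk, which binds C-rich RNA, went from 358 to 228 FPKM (-0.65) and from 568 to 302 (-0.91). Hnrnpdl, a relative of Hnrnpd, was at 61.4 and 57.3 FPKM in sorted cells (-0.10) and at 160 and 98.9 in overexpression (-0.69). Of the 7 genes of the A, B and D groups, 5 were lower in KLF3-OE cells (background 59.4%). Their median was -0.69, with a range from -1.13 to -0.25 over the settings. Hnrnpa1 and Hnrnpa3 share 50-base words with 19 and 45 other genes, and 46.4% and 28.2% of their words recur there.

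The hnRNP F and H proteins bind runs of G, and all 4 of their genes were lower in KLF3-OE cells (background 59.4%). Of these, Hnrnph2 alone kept its sign in every setting. Hnrnph2 went from 43.7 to 19.0 FPKM (-1.16), and in sorted cells from 5.0 to 3.84 (-0.31). In KLF3-GFP-positive cells the group was split, as Hnrnph1 was higher, from 14.7 to 23.0 FPKM (0.61), and Hnrnph3 lower, from 60.5 to 37.9 (-0.66). The hnRNP U proteins, which bind chromatin-associated RNA, were split in overexpression. Hnrnpul1 (chr7:25721498-25754730) went from 55.5 to 18.6 FPKM (-1.53), over 2-fold in all 13 settings, whereas Hnrnpu was at 42.0 and 58.5 (0.47), higher in every setting. In sorted cells the 3 genes were at 18.9 and 21.5 FPKM for Hnrnpu (0.17), 4.37 and 4.85 for Hnrnpul1 (0.12) and 2.39 and 3.44 for Hnrnpul2 (0.39), of which the last kept its sign in every setting.

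Hnrnpl, which binds CA repeats, was the second most abundant splicing gene in KLF3-GFP-negative cells, at 2227 FPKM against 1533 in KLF3-GFP-positive cells (-0.54), and the 80th of all genes listed in the first of these columns. In GFP-OE and KLF3-OE cells it was at 207 and 286 FPKM (0.46), the 386th and 400th of all genes. The library protocols differed, so the ranks are set side by side and not compared as levels. Hnrnpr, a relative of the RNA-binding protein SYNCRIP, was lower in both, from 20.0 to 12.1 FPKM (-0.68) and from 33.8 to 21.7 (-0.62, with a highest value of 0.03 over the settings). The remaining Hnrnp genes (Hnrnpa0, Hnrnpab, Hnrnpc, Hnrnpd, Hnrnpf, Hnrnpll and Hnrnpm) lay between -0.45 and 0.09 in sorted cells and between -0.17 and 0.27 in overexpression, where Hnrnpll had the lowest FPKM of the class in GFP-OE cells, 17.6 against 16.8 in KLF3-OE cells.

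Across experiments, 66 splicing genes were tested in both. There were 25 that were lower in sorted and higher in overexpressing cells, 24 that were lower in both, 10 that were higher in sorted and lower in overexpressing cells, and 7 that were higher in both. Across these genes, which are not independent and share their libraries, Pearson's r was -0.17 and Spearman's rho was -0.14, and across all 8887 genes tested in both they were 0.21 and 0.08. The experiments share no samples. All 11 Snrp genes fell into the first group. Of the 66 genes, 24 kept their sign in both experiments in all settings in which they were tested. These comprised 12 that were lower in both (Hnrnpa1, Hnrnpa2b1, Hnrnpa3, Hnrnpdl, Hnrnph2, Hnrnpk, Prpf8, Prpf18, Sf3b2, Sf3b3, Srsf6 and Srsf10), the 9 with Prpf3 and Snrp genes, the 2 of Prpf4b and Prpf38b, and Sf3b5.

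**Figure D3:**
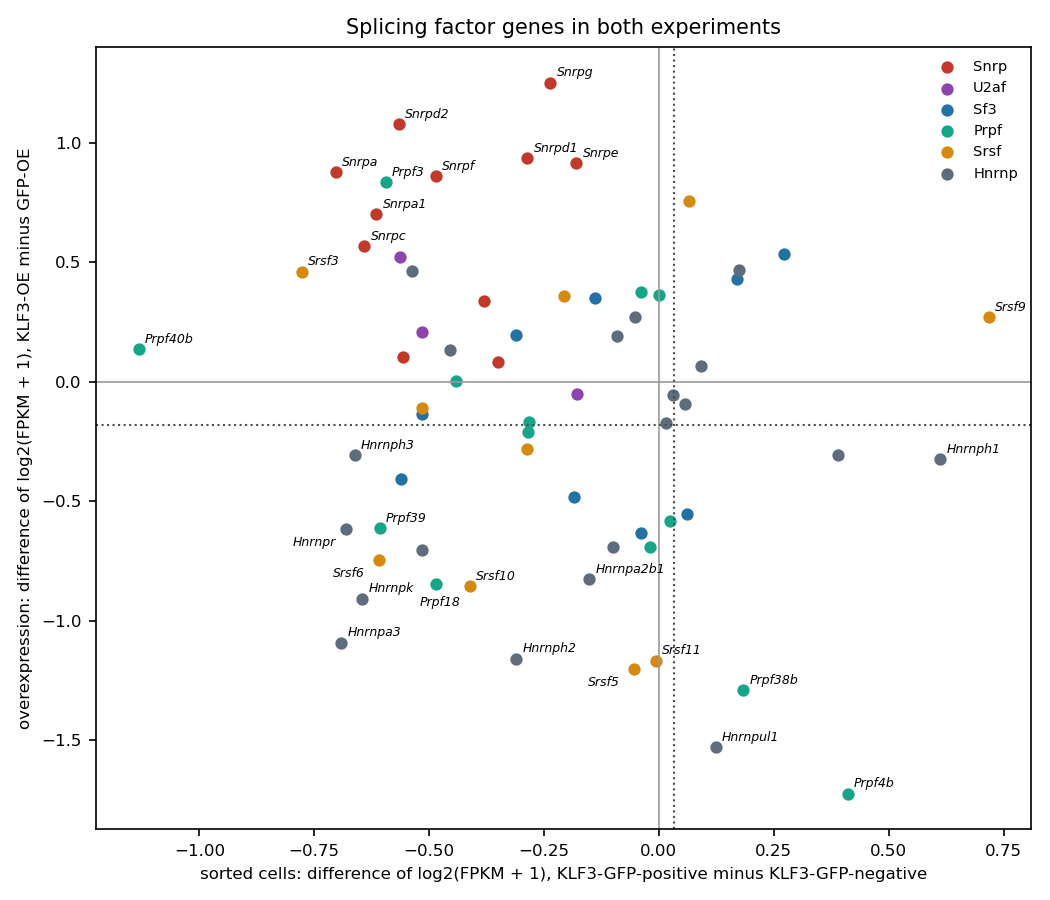
Difference of log2(FPKM + 1) of 66 splicing genes in sorted cells (x axis) and overexpression (y axis), coloured by class, with the median of all genes dotted and names for genes at least 0.58 from 0 in sorted cells or 0.8 in overexpression. The 11 Snrp points lie in the upper left, Prpf4b, Hnrnpul1 and Prpf38b lie lowest, and Prpf40b and Srsf9 lie at the left and right ends (Snrpb, Snrpb2 and Snrpd3 change sign on the y axis under other scalings).

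In overexpression the differences of all genes followed the genomic span of the gene. When the 11179 genes were split into 5 groups of equal size by span, the median difference was 0.35 for the shortest genes (0.168 to 7.406 kb) and -0.01, -0.22, -0.44 and -0.49 in the next groups. Splicing genes are short, with a median span of 12.4 kb against 21.7 kb for all genes, and Snrp genes shorter still at 9.27 kb. Of the 11 Snrp genes, 4 were in the shortest group, 6 in the next and 1 in the middle one. All splicing genes in the first 2 groups had medians of 0.27 (19 genes) and 0.21 (21 genes), those in the next 2 had -0.17 (16 genes) and -0.41 (9 genes), and the longest group held 1, Prpf6 (-0.21). With the trend removed, the Snrp median was 0.69 and 11 of 11 were higher, and with trends of span, transcript length and GC content removed it was 0.61 with 10 of 11 higher. In sorted cells the medians of all genes ran from -0.03 to 0.12, and the Snrp median without the trend was -0.50.

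Short genes of other classes took both signs. Srsf5 (5.004 kb), Hnrnph2 (5.88 kb), Srsf6 (5.59 kb) and Hnrnpa1 (4.52 kb) all belong to the shortest group and were lower in KLF3-OE cells in every setting. Srsf2 (3.19 kb) and Sf3b5 (3.84 kb) belong to the same group and were higher there in every setting. Prpf3, at 25.8 kb, was higher in every setting. The part of gene span in these differences was not tested.

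**Figure D4:**
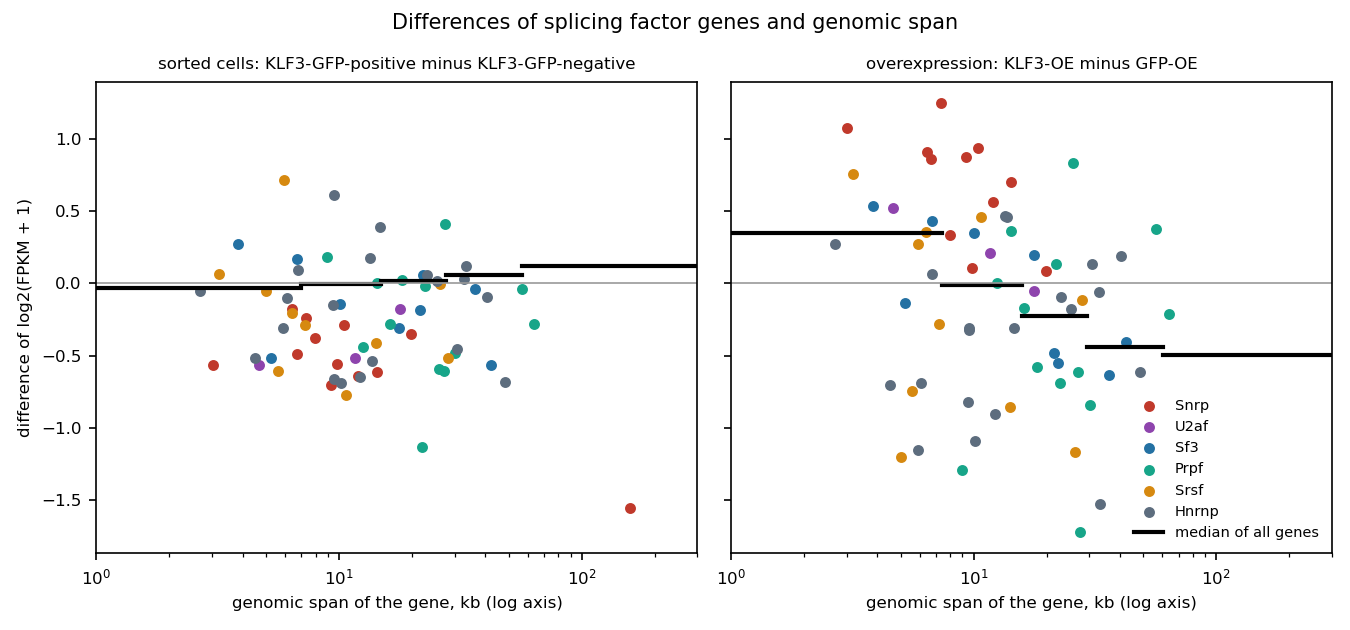
Difference of log2(FPKM + 1) of splicing genes against genomic span in kb (log axis), in sorted cells (left) and overexpression (right), with horizontal bars at the median of all genes in each of 5 span groups. On the right the bars step down from 0.35 to -0.49, and all 11 Snrp points lie above the bar of their group, while Srsf5, Hnrnph2, Srsf6 and Hnrnpa1 lie far below the bar of the shortest group.

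The annotation of these genes differed from that of others. Many splicing factors are known to limit their own output through exons that send the transcript to nonsense-mediated decay. In GENCODE M21, 34 of 67 splicing genes tested in sorted cells (50.7%) had at least 1 transcript annotated to this pathway, against 30.5% of all genes tested, and 9 of 10 Srsf genes did. Only 1 of 9 Sf3 genes did, and 4 of 12 Snrp genes (33.3%) did. Splicing genes also had more annotated transcripts, with a median of 6 against 5 for all genes tested. The part of that in these shares was not tested. A transcript with a retained intron was annotated for 74.6% of splicing genes and 62.1% of all genes. A gene-level FPKM adds productive and unproductive transcripts together, so neither splicing nor the share of such transcripts was measured. Among 68 splicing genes, 22 had over 10% of their 50-base words in another gene and 25 had none, the latter including Prpf4b, Prpf38b, Prpf40b and Srsf11. The former included Snrpa (22.5%), Snrpf (21.3%), Snrpn (21.2%), Snrpe (20.8%), Snrpc (19.6%), Snrpg (18.1%), Snrpd1 (13.8%) and Snrpd2 (11.7%). Except for Snrpn, the gene sharing most with each of these was a pseudogene. Genes of other classes with over 10% included Hnrnpk (34.5%), Srsf3 (31.5%), Srsf5 (27.8%) and Hnrnph2 (18.2%). Snrpa1 had 8.34%, Snrpb2 0.75%, Snrpb 0.09% and Snrpd3 none. The part of shared words in the values of Snrp and other splicing genes was not tested.

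To set the 68 genes in the wider machinery, 156 genes of 8 other splicing lists were described in the same way. In sorted cells 105 of 152 were lower (background 48.1%), with a median of -0.18, or -0.21 relative to all genes. Only 4 were over 2-fold higher (background 13.8%) and 6 over 2-fold lower (background 8.32%), both below the share of all genes. In overexpression 85 of 154 were lower, a smaller share than the 59.4% of all genes, with a median of -0.11 that lay 0.07 above that of all genes. There 8 were over 2-fold higher (background 6.6%) and 20 over 2-fold lower (background 10.1%). All 38 of these differences kept their sign in every setting, and 13 of them, 7 in sorted cells and 6 in overexpression, stayed over 2-fold in every setting in which the gene was tested. LSm proteins, most of which form Sm-like rings on U6 or in mRNA decay, came nearest to the Snrp genes in overexpression. There 9 of 10 were higher (background 40.5%), with a median of 0.77 (range 0.25 to 0.95 over the settings). Lsm5 went from 62.2 to 134 FPKM (1.09), Lsm6 from 163 to 332 (1.02) and Lsm8 from 81.4 to 73.9 (-0.14). In sorted cells 6 of 10 were lower (background 48.1%), with Lsm1 at 69.8 and 44.9 FPKM (-0.62) and Lsm11 at 2.30 and 4.23 (0.66).

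Other proteins of U1, U4/U6.U5 and the minor spliceosome were higher for 16 of 24 in KLF3-OE cells (background 40.5%). Their median of 0.26 changed sign between settings. Eftud2, the GTPase that partners Prpf8 in U5, went from 92.2 to 310 FPKM (1.74), and was over 2-fold higher in all 13 settings, whereas its partner was lower. Zcrb1 went from 53.2 to 112 FPKM (1.06), and Luc7l2, a U1-associated protein, from 46.3 to 17.7 (-1.34). In sorted cells 16 of 24 were lower (background 48.1%). There Zmat5 and Snrnp48, both of the minor U11/U12 particle, were the lowest, from 97.5 to 41.9 FPKM (-1.20) and from 40.6 to 18.4 (-1.10), and Zcrb1 of the same particle was the highest, from 219 to 315 (0.52).

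The Prpf19 complex and the proteins of the catalytic steps were lower for 22 of 24 in KLF3-GFP-positive cells (background 48.1%). Their median was -0.38 (range -0.53 to -0.38). The core subunit Cdc5l was lowest at 85.0 and 41.4 FPKM (-1.02) and Cwc25 highest at 9.86 and 14.1 (0.47). In overexpression they divided into 12 and 12 (background 59.4% lower), with a median that ranged from -0.48 to 0.31 over the settings. Aqr went from 35.5 to 15.3 FPKM (-1.17), Cdc40 from 13.4 to 5.17 (-1.23) and Phf5a, a small SF3B subunit outside the symbol rule, from 103 to 201 (0.95). Spliceosomal helicases were lower for 9 of 11 in sorted cells (background 48.1%). In overexpression 6 of 11 were lower, under the background of 59.4%, and the median lay 0.17 above that of all genes. That distance ranged from -0.09 to 0.34 over the settings. Ddx39b (UAP56) went from 85.4 to 41.3 FPKM in sorted cells (-1.03), where Ddx17 was highest at 3.90 and 5.48 (0.40). Dhx15, which takes the spent spliceosome apart, went from 92.3 to 31.6 in overexpression (-1.52), Ddx17 from 75.8 to 30.5 (-1.28) and Dhx16 from 226 to 425 (0.91).

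SR-related proteins and the kinases of SR proteins were lower for 18 of 22 in KLF3-OE cells (background 59.4%). Their median was -0.57, with a range from -0.996 to -0.23. In KLF3-GFP-positive cells 13 of 22 were lower (background 48.1%), with a median of -0.08. The kinase Srpk2 was over 2-fold lower in both experiments, from 45.0 to 17.8 FPKM in sorted cells (-1.30) and from 10.1 to 3.01 in overexpression (-1.47). Rsrc1 (21.8 to 8.01, -1.34), Rsrc2 (103 to 43.1, -1.24), Pnn (52.3 to 22.2, -1.20) and Srrm1 (87.5 to 39.5, -1.13) were also over 2-fold lower in KLF3-OE cells. Puf60 was highest there at 121 and 140 FPKM (0.21), and Srrm2 in sorted cells at 462 and 591 (0.35).

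Other splicing regulators were the only list without a majority of lower genes in sorted cells, with 17 higher and 16 lower of 33 (background 48.1% lower). Ptbp3, a relative of the polypyrimidine tract-binding protein, went from 2.15 to 14.7 FPKM (2.31), the highest difference of these 8 lists in either experiment. The muscleblind genes Mbnl1 (6.20 to 13.8, 1.04) and Mbnl2 (2.03 to 5.79, 1.16) and the neuronal regulator Ptbp2 (1.92 to 5.16, 1.08) were also over 2-fold higher, and Pcbp3 was lower (6.35 to 1.95, -1.32). In overexpression 26 of 34 were lower (background 59.4%) and none was over 2-fold higher (background 6.6%). Ptbp2 was there over 2-fold lower, from 16.9 to 4.71 FPKM (-1.65). The paraspeckle proteins Pspc1 (50.4 to 14.0 FPKM, -1.78) and Nono (271 to 124, -1.12) and the nuclear matrix protein Matr3 (131 to 53.7, -1.27) were lower in every setting. Qk (22.1 to 7.70, -1.41), Rbmx (7.67 to 2.58, -1.28) and Tia1 (15.5 to 5.95, -1.24) were over 2-fold lower as well, and Rbm17 was highest at 152 and 234 (0.62).

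The exon junction complex is left on the mRNA upstream of each joined exon pair, and its list here also held factors of nonsense-mediated decay. The median in KLF3-OE cells was -0.34, with 6 of 13 higher (background 40.5%), and ranged from -0.76 to 0.29 over the settings. The genes of its stable core are the helicase Eif4a3 and the pair of Rbm8a and Magoh or Magohb. They were over 2-fold higher as deposited and kept their sign in every setting. Eif4a3 went from 111 to 333 FPKM (1.58) and Rbm8a from 108 to 312 (1.52). Magohb went from 16.0 to 42.6 (1.36) and Magoh from 169 to 348 (1.03). The decay factor Smg1 (5.33 to 1.91, -1.12) was over 2-fold lower. In sorted cells 9 of 12 were lower (background 48.1%), and the list ran from Rbm8a at 696 and 431 FPKM (-0.69) to Upf1 at 5.13 and 9.04 (0.71). Genes of snRNP assembly, the pathway that loads Sm rings in the cytoplasm, were lower for 14 of 16 in KLF3-GFP-positive cells (background 48.1%). Their median was -0.44 (range -0.58 to -0.42). Gemin8 was lowest at 4.97 and 2.03 FPKM (-0.98) and Gemin7 highest at 48.9 and 80.9 (0.72). In overexpression 9 of 16 were higher (background 40.5%). Over the settings 2 to 10 were higher, and the median ranged from -0.41 to 0.22. Tgs1, which forms the trimethylguanosine cap of snRNAs, went from 11.6 to 4.06 FPKM (-1.32), and the export adaptor Phax from 47.8 to 90.7 (0.91).

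**Figure D5:**
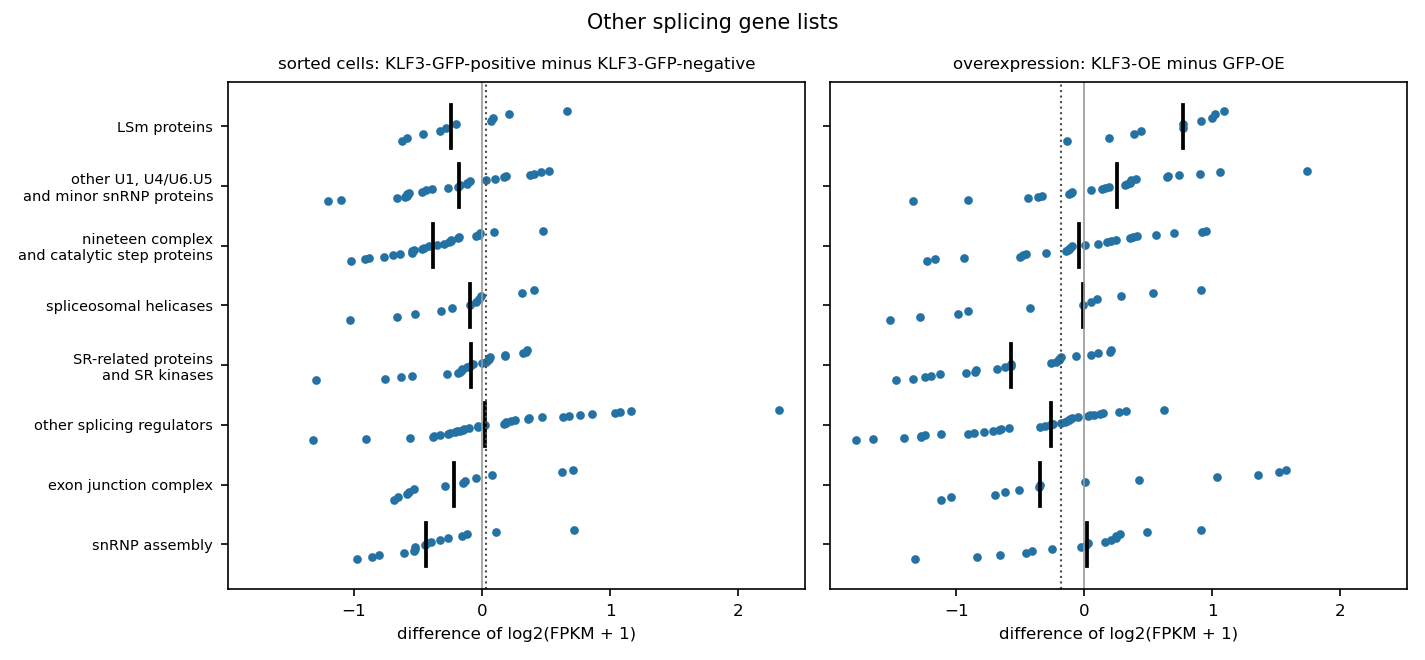
Difference of log2(FPKM + 1) of genes in 8 other splicing lists (points) in sorted cells (left) and overexpression (right), with list medians as vertical bars and the median of all genes dotted. In overexpression the LSm bar lies highest at 0.77 and that of SR-related proteins and kinases lowest at -0.57, and in sorted cells the bar of snRNP assembly lies lowest at -0.44, with Ptbp3 alone beyond 2.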

How the data were processed

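RNA-seq was carried out on 8 samples, 2 for each of 4 conditions. The authors aligned reads to mm10 with STAR (version 2.6.0 in the submitters' processing notes) and the GENCODE annotation, and computed FPKM with Cufflinks (version 2.2.1). The deposited FPKM, 1 table per experiment and 1 column per condition, are averages of 2 replicates for protein-coding genes, with 2 decimals and a lowest value of 0.1. The number of reads behind a value is unknown, and no counts, intervals or replicate spread can be had from averages. Every deposited column was used (0 left out).

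From these values, differences of log2(FPKM + 1) were computed within each table for genes with a mean of 1 FPKM or above, with limits of 2-fold and 1.5-fold and no test. Where an identifier had more than 1 locus, the most highly expressed one was taken. Coordinates are those of the tables (mm10), written from 1. Values were printed for genes at least 0.58 from 0 in either experiment, for the highest, lowest and most different genes of each class, for genes listed in 1 table, for all Snrp and U2af genes and Sf3a1, and, in the other lists, for the extremes and genes over 2-fold. Some of these genes are counted but their own values are not reported here. The symbol rule uses no measured value, but the rule and the lists were chosen with earlier results of these data known.

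Spans came from the tables. Transcript lengths, GC content, biotypes and 50-base words came from GENCODE M21 (GRCm38), in which 99.8% of identifiers in each table were found. Trends were removed by lowess with a fraction of 0.3. Scripts (Python 3.11.15, pandas 2.3.3, numpy 2.4.6, statsmodels 0.14.6) were tested on simulated data. The alternatives were a floor or a pseudocount of 0.1, no minimum, a minimum mean of 5 FPKM, median-ratio scaling, quantile normalization and removal of trends with span, transcript length or GC content. Scaling to the same summed FPKM, with or without ribosomal protein genes, and removal of all trends were added after the data were seen.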

Additional observations from a re-analysis of the deposited data

How the results depend on the processing

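No paired analysis was possible because each condition is 1 average of its replicates, so neither a replicate block nor leaving out a replicate could be run, and the depth and spread behind each value are unknown. In sorted cells the median difference of the splicing genes was -0.28 as deposited and was negative in all 13 settings: -0.29 with a pseudocount of 0.1, with a floor of 0.1, with a minimum mean of 5 FPKM or without the span trend, -0.26 without the transcript length trend, -0.33 without the GC trend, -0.32 with median-ratio scaling, -0.38 with quantile normalization, and, in alternatives chosen after seeing the data, -0.35 with the same summed FPKM, -0.43 with the same sum without ribosomal protein genes and -0.22 without all trends. The counts of 0 higher and 2 lower over 2-fold were the same in all 13 settings.

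In overexpression the median was -0.05 as deposited and took both signs: -0.055 with a pseudocount or a floor of 0.1, -0.056 with no minimum, 0.15 with median-ratio scaling, -0.29 with quantile normalization, 0.077, 0.13 and 0.19 without the span, transcript length and GC trends, -0.49 with the same sum, -0.28 with the same sum without ribosomal protein genes and 0.035 without all trends. As deposited, 2 genes were over 2-fold higher and 7 lower. These counts became 7 and 3 with median-ratio scaling (10.4% and 6.22% of all genes), 0 and 12 with quantile normalization (7.16% and 6.36%), 7 and 2 without the GC trend (8.49% and 5.22%), 0 and 18 with the same sum (2.38% and 25.1%) and 1 and 11 with the same sum without ribosomal protein genes (3.82% and 16.7%). The cause was not tested. Of the splicing genes, 55 of 67 kept their sign in sorted cells and 31 of 66 in overexpression in all settings in which they were tested. The class medians of Srsf, Hnrnp, Sf3, U2af and Prpf genes in overexpression took both signs, and that of Snrp genes stayed positive.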
